A study of Drosophila melanogaster with 15 samples.

Results

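The genes described here are 10 regulators of the Drosophila cell division cycle, chosen by their identifiers from the 15139 genes of the deposited tables: the cyclin genes CycD (CG9096), CycE (CG3938), CycA (CG5940) and CycB (CG3510), the kinase gene Cdk1 (CG5363), the phosphatase gene stg (string, CG1395), the kinase inhibitor gene dap (dacapo, CG1772), the transcription factor gene E2f1 (CG6376), its partner Rbf (CG7413), and PCNA (CG9193). They are represented by 24 of the 22353 listed transcripts. CycD and Rbf lie on the X chromosome, CycE and Cdk1 on arm 2L, CycB, dap and PCNA on 2R, CycA on 3L, and stg and E2f1 on 3R. Messenger RNA was sequenced from SL2, a male Drosophila cell line of embryonic origin, after 6 days of RNA interference (RNAi) at 25 °C. There was 1 library for each of 3 treatments: control RNAi, whose target the labels do not name, RNAi against CLAMP, a zinc finger protein, and RNAi against MSL2, a subunit of the male-specific lethal complex that acts on the male X. No untreated library and no replicate is among them, so no p-value was possible, "higher" and "lower" describe these 3 libraries, and every interval below is an exact 95% interval for counting error alone. The other 12 of the 15 samples, chromatin immunoprecipitation of CLAMP and input DNA from SL2 and the female line Kc, were not analysed here.

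Cyclins are the regulatory partners of cyclin-dependent kinases, and each kinase is active only while its cyclin is present. In G1, CycD with Cdk4 phosphorylates Rbf, the fly retinoblastoma protein, and this releases E2f1, which turns on genes of DNA replication such as PCNA and CycE. CycE with Cdk2 then drives S phase and is held back by dap, and entry into mitosis follows when stg, a Cdc25-type phosphatase, removes the inhibitory phosphates from Cdk1 bound to CycA or CycB. The MSL complex raises transcription of X-linked genes in male flies, so CycD and Rbf are the members on its target chromosome.

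The library totals used by the authors for scaling lay between 67844405 and 68301197. The RNAi targets were lowest in their own libraries: Clamp had an RPKM (reads scaled by transcript length and library total) of 66.2 in control, 19.8 with CLAMP RNAi and 66.9 with MSL2 RNAi, and msl-2 had 19.8, 19.4 and 5.16. All 11 hemocyte genes on the list checked were expressed, SL2 being a blood-cell-like line, and their summed RPKM was 4794, 7034 and 5568 in the same order. Of the 11, 5 were at least 1.2-fold higher and 1 lower with CLAMP RNAi, beside 6.08% and 16.1% of the 7485 genes averaging 1 RPKM or more. With MSL2 RNAi 4 were higher and 3 lower, beside 11.1% and 21.5%. Of the genes of other cell types, 3 of 5 matched germline genes, 2 of 5 neuron genes and 1 of 5 muscle genes reached a mean level of 1 RPKM. The neuron genes summed to an RPKM between 12.2 and 13.2 and the muscle genes to between 2.68 and 2.77 per library, and no listed marker was at 0 reads in all 3 libraries. The germline genes, mainly aub and piwi, summed to 121 in control, 94.5 with CLAMP RNAi and 113 with MSL2 RNAi. Hemocyte markers lay on both sides of control. The log2 ratios with CLAMP RNAi and MSL2 RNAi were 1.40 and 0.79 for the peroxidasin gene Pxn, 1.00 and 0.95 for the hemolectin gene Hml, and 0.54 and 0.80 for the papilin gene Ppn, against −0.88 and −0.61 for He, with eater at −0.29 and crq at −0.26 with MSL2 RNAi. He, eater and crq were named after their values were seen. Among the other cell types these ratios were −0.56 and −0.37 for AGO3, −0.52 and −0.07 for piwi, −0.04 and 0.64 for brp, −0.17 and −0.60 for elav, and 0.05 and −0.12 for up. The X-linked noncoding roX RNAs, which are part of the MSL complex, had log2 ratios of −0.17 and −1.57 for roX1 and −0.56 and −2.22 for roX2. The part of these differences in cell character in the results below was not tested.

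All 10 genes were expressed, each with at least 1723 reads in every library on its most counted transcript, and all passed the level filter, a mean of 1 RPKM or more, that left 7485 tested genes. In control cells PCNA, the sliding clamp of DNA polymerase, had the highest RPKM at 177 (174 to 180), above 95.6% of tested genes in mean level. E2f1 followed at 80.3 (79.4 to 81.3), then CycB at 72.2 (71.0 to 73.5), stg at 64.0 (63.0 to 65.1) and CycA at 61.9 (60.7 to 63.1). Counting intervals of stg and CycA overlapped in control, and no interval was computed for their ratio. Cdk1 stood at 39.2 (37.8 to 40.7), CycE at 23.7 (23.1 to 24.4) and dap at 21.1 (20.4 to 21.8). The X-linked members were the lowest in this order, Rbf at 16.7 (16.2 to 17.2) and CycD at 15.4 (14.8 to 16.0). In mean level CycD, Rbf and dap were above 34.0%, 42.1% and 48.6% of tested genes. From the fifth place down the order was identical in all 3 libraries. Above it only PCNA kept its place: stg moved from rank 4 in control to rank 2 in both knockdown libraries, and E2f1 from rank 2 to rank 3 with CLAMP RNAi and rank 4 with MSL2 RNAi.

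**Figure D1:**
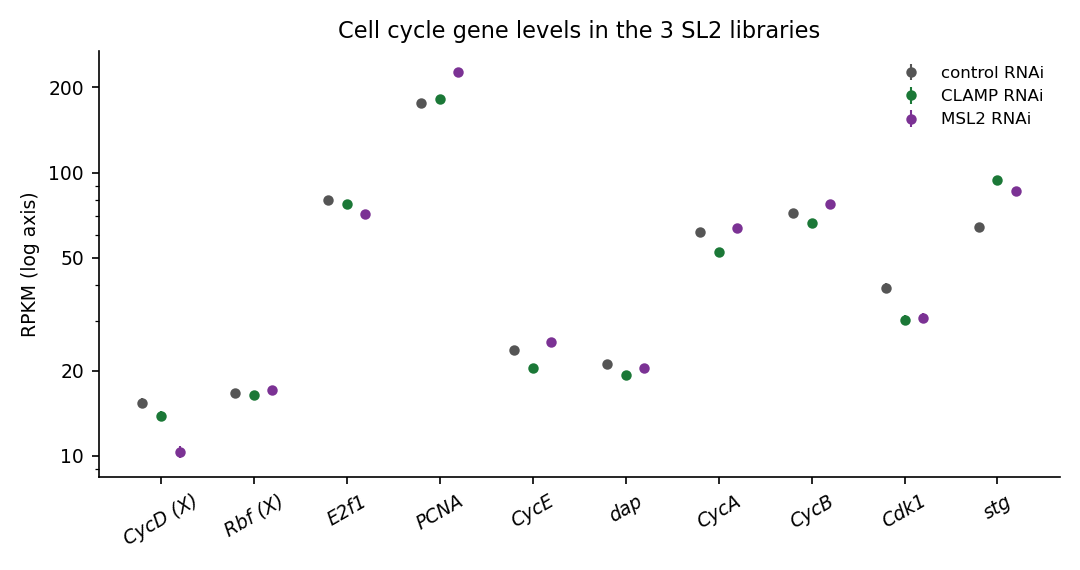
RPKM (log axis) of the 10 cell cycle genes in the control, CLAMP RNAi and MSL2 RNAi libraries, 1 point per library, with exact 95% Poisson counting intervals that are mostly smaller than the points. With each gene shown by its most counted transcript, PCNA is highest in each library and CycD lowest, and stg reads 64.0, 94.2 and 86.2.

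The X-linked members, CycD and Rbf, differed from each other after depletion of MSL2. CycD, the cyclin partner of Cdk4, had an RPKM of 15.4 in control, 13.9 with CLAMP RNAi and 10.3 with MSL2 RNAi, from 2571, 2326 and 1723 reads. The MSL2 RNAi library was thus the lowest, and its counting interval (9.87 to 10.9) was separate from those of the other libraries. Its read ratio to control was 0.672 (0.632 to 0.715) with MSL2 RNAi, a log2 ratio of −0.57, and 0.901 (0.852 to 0.954) with CLAMP RNAi, −0.15. The median log2 ratio of the 1292 tested X genes was −0.33 with MSL2 RNAi and −0.05 with CLAMP RNAi. CycD therefore lay on the lower side of the X, with 16.2% of X genes lower still with MSL2 RNAi and 34.1% with CLAMP RNAi.

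Rbf, the pocket protein that binds and restrains E2f1, had an RPKM of 16.7 in control, 16.4 with CLAMP RNAi and 17.1 with MSL2 RNAi, from 4090, 4035 and 4182 reads. Its counting intervals overlapped across all 3 libraries. The read ratio to control was 1.03 (0.982 to 1.07) with MSL2 RNAi and 0.983 (0.941 to 1.03) with CLAMP RNAi. With MSL2 RNAi 91.8% of X genes had a lower log2 ratio than Rbf, and 133 of 1292 X genes had a ratio above that of control at all. Relative to the X median, Rbf was 0.37 higher and CycD 0.24 lower on the log2 scale. In the direct comparison of MSL2 RNAi with CLAMP RNAi, which leaves the control library out, CycD had a log2 ratio of −0.42 and Rbf of 0.06, beside an X median of −0.27; with the autosomal median set to 0 the Rbf value was −0.02.

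**Figure D2:**
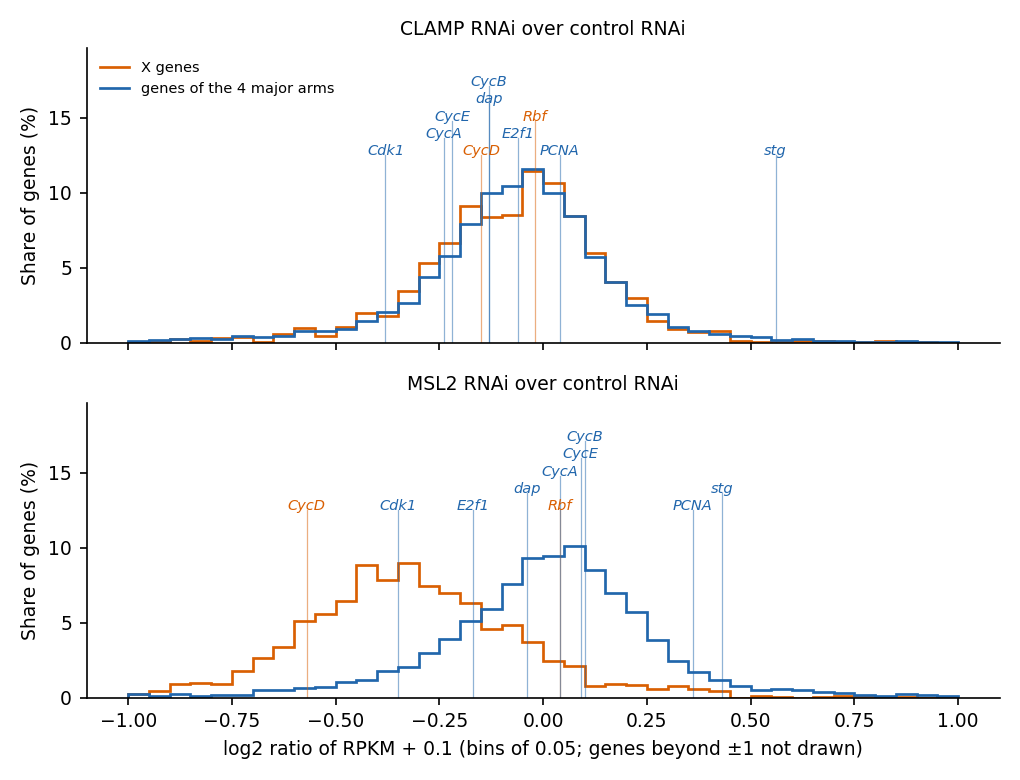
Share of tested genes (%, in bins of 0.05) by log2 ratio of RPKM + 0.1 for X genes (orange) and genes of the 4 major autosomal arms (blue), above for CLAMP RNAi and below for MSL2 RNAi over control; labelled lines mark the 10 cell cycle genes. With MSL2 RNAi the X distribution is centred on −0.33, CycD stands at −0.57 within its lower part, and Rbf stands at 0.04 in its upper tail.

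E2f1, the activating E2F transcription factor, had an RPKM of 80.3 in control, 77.2 with CLAMP RNAi and 71.3 with MSL2 RNAi, from 26918, 25965 and 23813 reads on its most counted transcript. The MSL2 RNAi library was the low one, and all 3 counting intervals were separate. Its read ratio was 0.887 (0.872 to 0.903) with MSL2 RNAi, and 20.1% of genes on the major autosomal arms were lower. With CLAMP RNAi the ratio was 0.961 (0.945 to 0.977) and the log2 ratio −0.06, at the median of those genes, −0.05. With median-of-ratios scaling this log2 value was 0.0060, so no direction is given for E2f1 there. These values are for the RA transcript. For RB and RC the control and CLAMP RNAi intervals overlapped, and the log2 ratio with MSL2 RNAi was −0.08 for each.

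PCNA, a replication gene and a known E2F target, had an RPKM of 177 in control, 182 with CLAMP RNAi and 226 with MSL2 RNAi, from 12543, 12952 and 16035 reads. The MSL2 RNAi library was the high one, while control and CLAMP RNAi had overlapping intervals. Its read ratio to control was 1.28 (1.25 to 1.31) with MSL2 RNAi, above that of 92.7% of genes on the major arms. With CLAMP RNAi it was 1.03 (1.004 to 1.05), an interval just above equality. E2f1 RNA and the RNA of its target were thus on opposite sides of control with MSL2 RNAi, at log2 ratios of −0.17 and 0.36.

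CycE, the cyclin of S phase entry, had an RPKM of 23.7 in control, 20.4 with CLAMP RNAi and 25.2 with MSL2 RNAi. It was lowest with CLAMP RNAi, with a read ratio to control of 0.858 (0.826 to 0.891), and 19.9% of genes on the major arms were lower. With MSL2 RNAi the ratio was 1.06 (1.03 to 1.10), a log2 ratio of 0.09 beside a median of 0.03 for those arms. The RPKM of dap, the inhibitor of CycE with Cdk2, was 21.1 in control, 19.2 with CLAMP RNAi and 20.4 with MSL2 RNAi. Ratios of dap to control were 0.913 (0.870 to 0.957) and 0.969 (0.925 to 1.02), the second not separable from equality at this depth. The first is a log2 ratio of −0.13 beside a median of −0.05 on the major arms, where 33.7% of genes were lower.

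The mitotic cyclins shared an order of libraries with CycE, lowest with CLAMP RNAi and highest with MSL2 RNAi. For CycA the single-library intervals of control and MSL2 RNAi overlapped, with a read ratio of 1.03 (1.002 to 1.06). CycA, the cyclin that flies need for mitosis, had an RPKM of 61.9 in control, 52.5 with CLAMP RNAi and 63.8 with MSL2 RNAi. CycB, the other main mitotic cyclin, had 72.2, 66.2 and 77.5 in the same order. With CLAMP RNAi the read ratio was 0.848 (0.824 to 0.872) for CycA and 0.917 (0.894 to 0.940) for CycB. These correspond to log2 ratios of −0.24 and −0.13 beside a median of −0.05 on the major arms, so CycB was close to the bulk of genes, 34.8% of which were lower. With MSL2 RNAi the log2 ratios were 0.04 for CycA and 0.10 for CycB, near the autosomal median of 0.03.

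Cdk1, the kinase that these cyclins activate, had an RPKM of 39.2 in control, 30.2 with CLAMP RNAi and 30.7 with MSL2 RNAi, from 2891, 2234 and 2255 reads. Control was the high library and the knockdown libraries overlapped in their counting intervals. The read ratio to control was 0.770 (0.728 to 0.814) with CLAMP RNAi and 0.782 (0.740 to 0.827) with MSL2 RNAi. Of the genes on the major arms, 8.73% and 8.31% had lower ratios. The stg gene, whose product activates Cdk1, had an RPKM of 64.0 in control, 94.2 with CLAMP RNAi and 86.2 with MSL2 RNAi, from 13299, 19646 and 17852 reads. Here control was the low library, and all 3 counting intervals were separate. The read ratio of stg was 1.47 (1.44 to 1.504) with CLAMP RNAi, above that of 98.4% of genes on the major arms, and 1.35 (1.32 to 1.38) with MSL2 RNAi, above that of 94.8%. Both comparisons rest on the same control library, so the like values of Cdk1 and of stg are not separate observations. Between the knockdown libraries, the log2 ratio of MSL2 RNAi over CLAMP RNAi was 0.02 for Cdk1 and −0.13 for stg, and with the autosomal median set to 0 that of Cdk1 was −0.06. In bulk RNA a different share of cells in a cycle phase and a different amount of RNA per cell cannot be told apart.

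**Figure D3:**
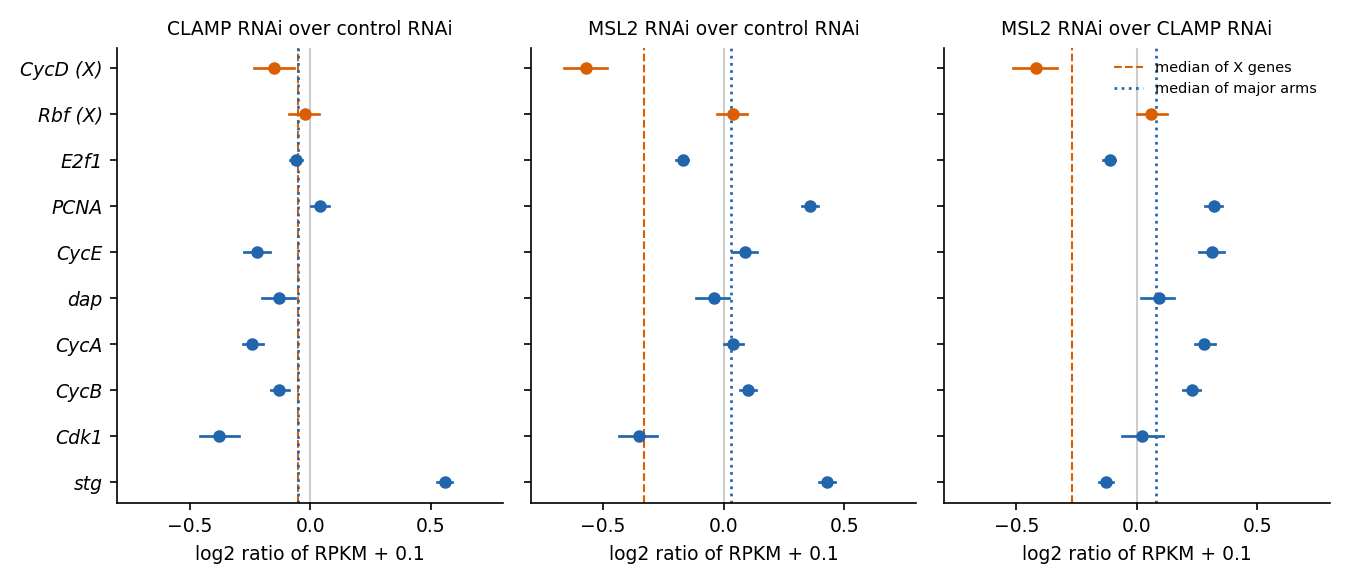
log2 ratio of RPKM + 0.1 of each gene in the 3 comparisons of libraries, with exact 95% counting intervals as bars, X-linked genes in orange and autosomal genes in blue; dashed and dotted lines give the medians of X genes and of the major autosomal arms. The largest values are 0.56 for stg with CLAMP RNAi and −0.57 for CycD with MSL2 RNAi.

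Counted by a fixed rule of size, few of the 10 genes stood apart from control. With CLAMP RNAi, 1 member was at least 1.2-fold lower (Cdk1) and 1 at least 1.2-fold higher (stg), beside 16.1% and 6.08% of all tested genes. With MSL2 RNAi, 2 members were at least 1.2-fold lower (CycD and Cdk1), beside 21.5% of all tested genes and 61.1% of X genes, and 2 were higher (stg and PCNA), beside 11.1%. These counts of 10 genes are near the background. No member reached 1.5-fold in any comparison, beside 3.86% of tested genes lower and 1.5% higher with CLAMP RNAi and 5.32% and 2.53% with MSL2 RNAi. That threshold, 0.58 on the log2 scale, was passed by stg with CLAMP RNAi under autosomal-median, upper-quartile and median-of-ratios scaling (0.61, 0.59 and 0.62), and by CycD with MSL2 RNAi under autosomal-median scaling (−0.59). The median log2 ratio of the 10 genes was −0.13 with CLAMP RNAi beside −0.06 for all tested genes, and 0.04 with MSL2 RNAi beside −0.02.

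Taking MSL2 RNAi over CLAMP RNAi, 3 members were at least 1.2-fold higher, namely CycE, CycA and PCNA, beside 15.0% of all tested genes, and CycD was the 1 member at least 1.2-fold lower, beside 15.6%. Read ratios were 1.24 (1.19 to 1.29) for CycE, 1.22 (1.18 to 1.25) for CycA and 1.25 (1.22 to 1.28) for PCNA. CycB followed at 1.17 (1.14 to 1.2). With the autosomal median set to 0, the log2 ratios of the first 3 became 0.23, 0.20 and 0.24 and none passed the 1.2-fold rule, 0.26 on that scale. No member was 1.5-fold lower or higher in this comparison either, beside 3.62% and 4.24% of tested genes.

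Ratios of partner genes within a library do not depend on how libraries were scaled to each other. The RPKM of CycD divided by that of Cdk4, its kinase, was 0.937 (0.884 to 0.993) in control, 1.03 (0.968 to 1.10) with CLAMP RNAi and 0.711 (0.666 to 0.760) with MSL2 RNAi. The MSL2 RNAi library was separate from the others, at 0.759 of the control value. For Rbf over E2f1, the corresponding ratios were 0.208 (0.201 to 0.215), 0.213 (0.206 to 0.220) and 0.240 (0.232 to 0.248), highest with MSL2 RNAi. E2f1 over its dimer partner Dp was 1.48 (1.45 to 1.52), 1.41 (1.37 to 1.44) and 1.28 (1.25 to 1.31), lowest with MSL2 RNAi. Both E2f1 ratios used its RA transcript and depend on that choice. The RB transcript had an RPKM of 76.4 in control, 78.2 with CLAMP RNAi and 72.4 with MSL2 RNAi.

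Mitotic cyclin RNA was higher relative to Cdk1 RNA in both knockdown libraries. With CLAMP RNAi both cyclins were below control and Cdk1 was further below, at read ratios of 0.848 for CycA, 0.917 for CycB and 0.770 for Cdk1. With MSL2 RNAi these ratios were 1.03, 1.07 and 0.782, so Cdk1 carried most of the difference. CycA over Cdk1 was 1.58 (1.51 to 1.65) in control, 1.74 (1.66 to 1.82) with CLAMP RNAi and 2.08 (1.99 to 2.18) with MSL2 RNAi. CycB over Cdk1 was 1.84 (1.77 to 1.92), 2.19 (2.10 to 2.29) and 2.53 (2.42 to 2.64). The ratio of stg to Wee1, the kinase that opposes it on Cdk1, was 2.90 (2.80 to 3.01) in control, 4.32 (4.17 to 4.48) with CLAMP RNAi and 3.65 (3.53 to 3.78) with MSL2 RNAi. Wee1 itself had an RPKM between 21.8 and 23.6, so the numerator carried most of this difference.

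CycE over Cdk2, its kinase, was lowest with CLAMP RNAi at 1.91 (1.79 to 2.05), against 2.56 (2.38 to 2.75) in control and 2.40 (2.24 to 2.57) with MSL2 RNAi. Cdk2 RNA contributed to this, with an RPKM of 9.27 in control and 10.7 with CLAMP RNAi. The ratio of CycE to its inhibitor dap was 1.13 (1.08 to 1.17) in control, 1.06 (1.01 to 1.11) with CLAMP RNAi and 1.24 (1.18 to 1.29) with MSL2 RNAi. The control and CLAMP RNAi intervals of this last ratio overlapped.

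**Figure D4:**
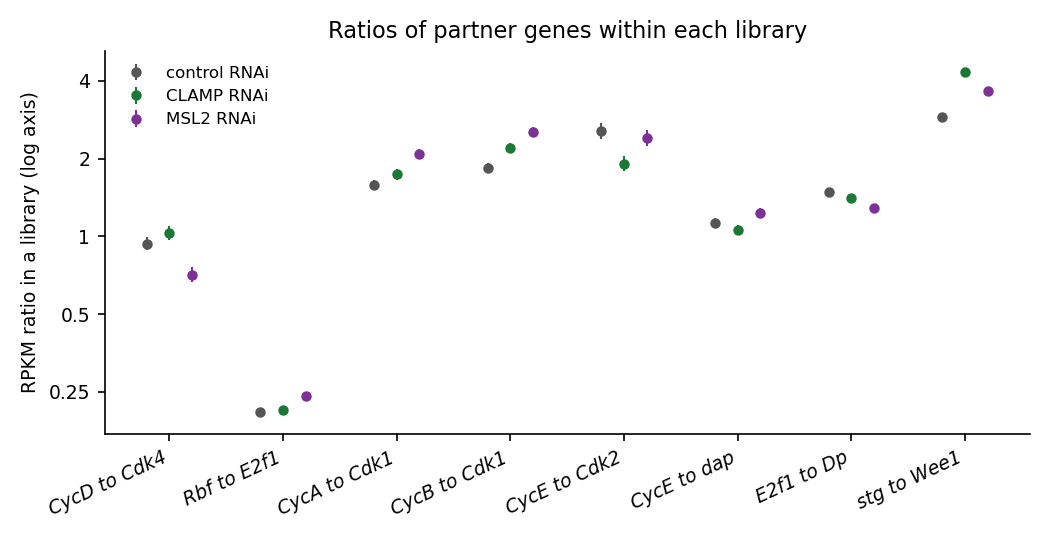
RPKM ratios of 8 pairs of partner genes within each library (log axis), with exact 95% counting intervals; grey is control, green CLAMP RNAi and purple MSL2 RNAi. CycD to Cdk4 is lowest with MSL2 RNAi at 0.711, and stg to Wee1 is highest with CLAMP RNAi at 4.32.

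Isoforms of 7 members were listed separately, 5 for CycE, 4 for CycB, 3 each for CycD and E2f1, and 2 each for CycA, dap and PCNA, while stg, Cdk1 and Rbf had a single transcript. Reads in shared exons are counted for every isoform, so isoform values are not independent. The 3 CycD isoforms had log2 ratios of −0.58 to −0.57 with MSL2 RNAi and −0.15 to −0.14 with CLAMP RNAi. Those of CycE spanned −0.22 to −0.19 with CLAMP RNAi and 0.09 to 0.12 with MSL2 RNAi. CycB isoforms spanned −0.13 to −0.11 and 0.10 to 0.12, and CycA isoforms −0.24 to −0.21 and 0.04 to 0.08. Isoforms of dap and of PCNA differed by less than 0.01 in each comparison. Choice of isoform therefore made little difference to these 6 genes.

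Among the log2 ratios to control, isoform choice mattered most for E2f1. Its RA transcript of 4926 bases had log2 ratios of −0.06 with CLAMP RNAi and −0.17 with MSL2 RNAi. The shorter RB transcript of 4187 bases had 0.03 and −0.08, and RC of 4389 bases had 0.02 and −0.08. RA had 5167 more reads than RB in control, 3607 more with CLAMP RNAi and 3242 more with MSL2 RNAi, a net difference at 0.695 and 0.629 of the control value once scaled by library totals. As a share of the RA reads this excess was 19.2% in control, 13.9% with CLAMP RNAi and 13.6% with MSL2 RNAi. The excess over RC was at 0.697 and 0.614 of the control value. Both excesses rest on the same RA reads and the same control library, so they are not separate observations. Each excess is the reads on RA but not on the other transcript minus the reverse, a comparison chosen after the values were seen. Which exons or ends hold these reads cannot be read from the tables. The corresponding excess of CycA-RA over RB, 3602 reads in control, was at 0.811 of control with CLAMP RNAi and 0.980 with MSL2 RNAi, against ratios of 0.848 and 1.03 for the gene. For CycE-RA over RB the excess was at 0.768 and 0.936 of control, against gene ratios of 0.858 and 1.06, and for CycB-RA over RD at 0.875 and 1.05, against 0.917 and 1.07.

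The wider cell cycle machinery was read from 7 lists with 108 tested genes that are not members. With CLAMP RNAi their median log2 ratio was −0.09, with 12 genes at least 1.2-fold lower and 1 higher, beside 16.1% and 6.08% of all tested genes. With MSL2 RNAi it was 0.02, with 15 lower and 6 higher, beside 21.5% and 11.1%. Each of these 4 counts is a smaller share of the 108 genes than the background. The same shares of all tested genes are the background for the counts of single lists below. Position on the X went with the lower side with MSL2 RNAi: 13 of 16 X-linked genes of these lists were at least 1.2-fold lower, beside 61.1% of all X genes, against 2 of the other 92, beside 12.7% of genes on the major arms. CycD sits with the majority of this X-linked set and Rbf with the minority.

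Among other cyclins and Cdks, 3 of 16 tested genes were at least 1.2-fold lower with CLAMP RNAi and 0 higher, which for the lower side is near the 16.1% of all tested genes. Cdk4, the partner of CycD, was at −0.29 and Cks30A, a Cdk-binding protein gene, at −0.27, and the third was CycC, cyclin of the Mediator kinase, at −0.27, named after its value was seen. With MSL2 RNAi 1 was lower, the X-linked Cdk7 at −0.27, whose product activates other Cdks, while Cdk9, a kinase of transcription elongation, stood at 0.22. Regulators of Cdk1 activity had 1 of 10 lower with CLAMP RNAi, namely twe at −0.35, the germline relative of stg, with the kinase gene polo at −0.26. With MSL2 RNAi 1 of 10 was lower, the X-linked fzr, an activator of the anaphase-promoting complex (APC/C), at −0.43. The kinase gene gwl stood at 0.20 there, and the X-linked Cdk inhibitor gene rux at 0.07, the single one of the 16 X-linked genes above control.

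The partners of E2f1 and Rbf had 0 of 9 past 1.2-fold with CLAMP RNAi, with Rbf2 at −0.15 and mip130 at −0.11. With MSL2 RNAi 3 of 9 were lower, beside 21.5% of all tested genes. All 3 are X-linked, and 61.1% of X genes were lower by the same rule. They were Myb at −0.51, lin-52 at −0.48 and mip130 at −0.33, subunits of the Myb-MuvB complex that also contains Rbf. Myb had an RPKM of 67.0 in control, 62.6 with CLAMP RNAi and 47.0 with MSL2 RNAi. Rbf, on the same chromosome and in the same complex, stood at 0.04. The autosomal Dp and E2f2 stood at 0.03 and 0.11.

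Replication and nucleotide supply genes, many of them E2F targets like PCNA, had a median of −0.05 with CLAMP RNAi and 0.11 with MSL2 RNAi over 34 tested genes. Without the 4 X-linked ones the median with MSL2 RNAi was 0.17, on the same side of the autosomal median of 0.03 as PCNA at 0.36. There 5 of 34 were at least 1.2-fold higher, the GINS subunit gene Psf1 at 0.34 and, named after their values were seen, dUTPase at 0.32, geminin at 0.32, dup at 0.30 and RfC4 at 0.27. That count is near the 11.1% of all tested genes. In the same list 3 were lower, all X-linked: the GINS subunit gene Psf3 at −0.37 and the replicative helicase genes Mcm6 at −0.37 and Mcm3 at −0.27. The fourth X-linked gene, Cdc45, was at −0.14. The autosomal genes of the same helicase, Mcm2, dpa (Mcm4), Mcm5 and Mcm7, stood between 0.06 and 0.24, so its subunits lay on both sides of control. Mcm10, an autosomal replication factor gene outside that helicase, stood at −0.11. These 5 were named after their values were seen. With CLAMP RNAi, 1 of 34 was higher (Psf1 at 0.27) and 1 lower (Psf3 at −0.28).

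Mitosis and spindle checkpoint genes had a median of −0.14 with CLAMP RNAi, and 7 of 23 were at least 1.2-fold lower with 0 higher, beside 16.1% and 6.08% of all tested genes. The APC/C subunit gene APC7 was at −0.50 and the securin gene pim at −0.46, with 313 and 659 reads in control. The separase genes thr at −0.45 and Sse at −0.34 were also among them, a pair named after its values were seen. With MSL2 RNAi 4 of 23 were lower, including pim at −0.29, and 1 was higher, the APC/C subunit gene Cdc23 at 0.27, named after its value was seen. The X-linked APC/C subunit genes had the lowest values: shtd at −0.70, APC4 at −0.40 and APC7 at −0.39. The checkpoint kinase gene mei-41 (ATR), X-linked as well, had an RPKM of 7.40 in control, 6.70 with CLAMP RNAi and 4.37 with MSL2 RNAi, log2 ratios of −0.14 and −0.75. In its list of 9, Hus1-like (−0.27) was the other gene past 1.2-fold with MSL2 RNAi, and 0 of 9 were past it with CLAMP RNAi, where tefu (ATM) was at −0.24. Ubiquitin ligase genes that act on CycE, E2f1 and others had 0 of 7 past 1.2-fold with CLAMP RNAi, with Cul4 at −0.17 and SkpA at −0.12. With MSL2 RNAi 1 of 7 was lower, the X-linked SkpA at −0.35, and the X-linked Roc1a was at −0.14.

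**Figure D5:**
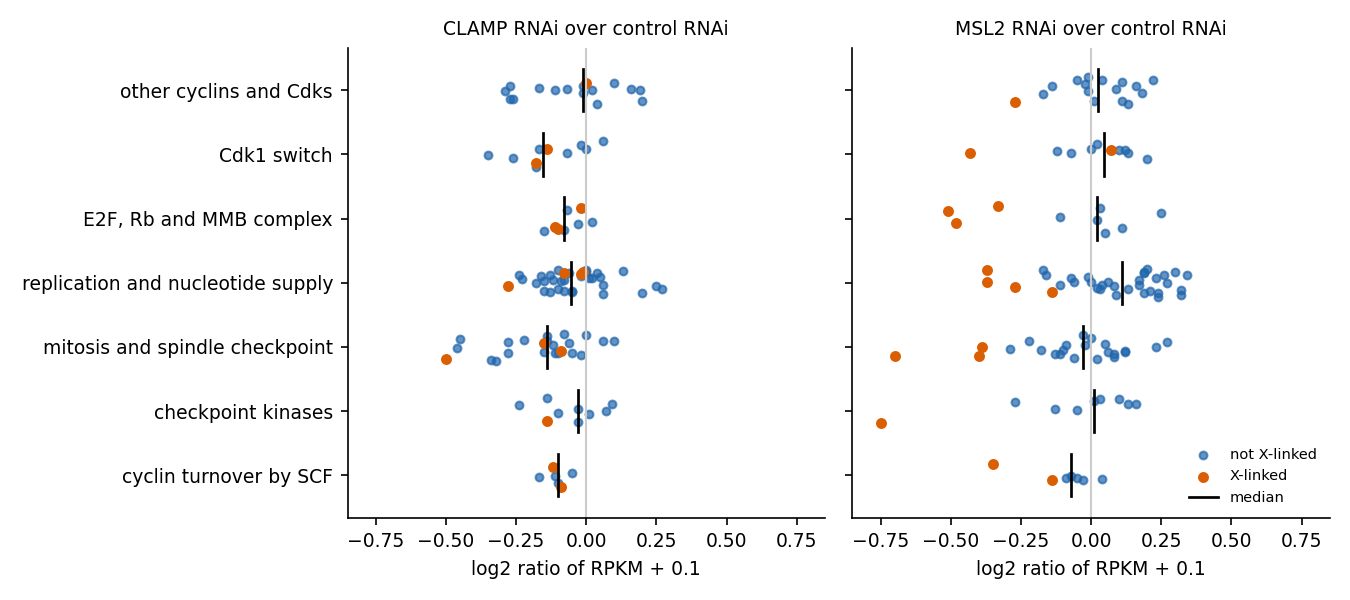
log2 ratio of RPKM + 0.1 of each tested gene in 7 cell cycle lists without the 10 members, for CLAMP RNAi (left) and MSL2 RNAi (right) over control; orange points are X-linked, blue points are not, black bars are list medians, and vertical scatter within a list is arbitrary. With MSL2 RNAi the X-linked points lie to the left, 13 of 16 at least 1.2-fold lower, with mei-41 at −0.75 and shtd at −0.70.

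By distance in the plane of the log2 ratios to control, measured over 3 libraries among 6436 other genes averaging 5 RPKM or more, the genes most like CycD were trr, Myc and CG9578. All 3 are X-linked with log2 ratios of −0.57 with MSL2 RNAi and between −0.16 and −0.14 with CLAMP RNAi, at distances of 0.0062 to 0.010. The genes nearest stg lay farther off and were scaf6 (0.49 and 0.42), the noncoding CR32477 (0.51 and 0.49) and eIF4H2 (0.55 and 0.52), at distances of 0.070 to 0.092. The values in parentheses are the log2 ratios with CLAMP RNAi and MSL2 RNAi.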

How the data were processed

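The deposited table of each library gives, per transcript, an RPKM value, a whole read count, a length and the library total. Per the submitters' processing notes, Bowtie and dm3 were used. The version, counting tool, annotation and use of strand were not given in the sources used here, so overlapping or antisense genes cannot be told apart. The deposited RPKM values equal the deposited counts divided by length and library total. Each gene was represented by its most counted transcript. Symbols and chromosome arms came from an annotation of another assembly, by locus tag for 13783 of 15139 genes and by synonym for 749, so no coordinates are given. The listed genes lat and nos were not analysed here. The tested genes averaged 1 RPKM or more. Log2 ratios used RPKM plus 0.1, which understates changes of low genes. Ratios of counts have exact conditional binomial intervals and single counts exact Poisson intervals (scipy 1.17.1). These treat reads as independent and cover counting error only. With 1 library per group no count model was fitted. Functions were tested on simulated data. Named genes are all members, their partners, the 2 largest ratios per list in each comparison with control, X-linked genes of the cell cycle lists, and the 3 genes nearest CycD and stg. Members and lists were chosen with earlier results of these data known. Alternatives were pseudocounts of 0.01 and 1, other transcripts per gene, 3 scalings, no level filter and a level filter of 5 RPKM.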

Additional observations from a re-analysis of the deposited data

How the results depend on the processing

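No paired analysis was possible because each treatment has 1 mRNA library. Of 270 log2 ratios of members recomputed under 9 alternatives, 239 stayed within their counting interval and 31 left it, 29 of them under the 3 scalings, which shifted libraries by −0.03 to 0.06 on the log2 scale. No ratio past 1.2-fold changed sign. The members' median with CLAMP RNAi, −0.13, became −0.0741 with the autosomal median set to 0 and −0.065 with median-of-ratios scaling. For MSL2 RNAi over CLAMP RNAi the autosomal setting moved the median from 0.07 to −0.0059 and the number of members past 1.2-fold from 4 to 1. Averaging over isoforms moved E2f1 to −0.0005 with CLAMP RNAi and −0.11 with MSL2 RNAi. Of the partner ratios recomputed with other transcripts, 33 stayed within their counting interval. Another 15 left it, 4 with the longest transcript and 11 with averaging over isoforms. The ratio of CycD to Cdk4 depended on the transcript chosen, at 1.16, 1.23 and 0.860 in control, CLAMP RNAi and MSL2 RNAi with the longest, and kept its order. The ratio of CycE to dap in control also left its interval with the longest, at 1.08. Background shares past 1.5-fold depended on the pseudocount and level. With a pseudocount of 1, 2.445% of genes were lower and 0.989% higher with CLAMP RNAi and 1.55% higher with MSL2 RNAi. At a mean RPKM of at least 5 these were 2.035%, 0.792% and 1.04%, with 2.07% higher in MSL2 RNAi over CLAMP RNAi, and without a filter 2.48% and 4.29% were higher with CLAMP and MSL2 RNAi. The share 1.2-fold higher was 9.23% with CLAMP RNAi with median-of-ratios scaling and 9.85% in MSL2 RNAi over CLAMP RNAi with autosomal scaling. Without replicate libraries the spread between cultures is unknown.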
